A study of Mus musculus with 18 samples.

Results

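The MS4A genes encode small membrane proteins of leukocytes, and 9 of them were followed here through a cultured macrophage experiment: Ms4a4a, Ms4a4b, Ms4a4c, Ms4a4d, Ms4a6b, Ms4a6c, Ms4a6d, Ms4a7 and Ms4a8a. They were taken by gene name from a table of 21734 protein-coding genes. A further 10 genes carry an Ms4a name, among them Ms4a1, which encodes the B cell antigen CD20, and Ms4a2, which encodes the beta chain of the high-affinity IgE receptor of mast cells. Of the 9 members, 7 passed a filter on low counts and were tested, and Ms4a4d and Ms4a8a did not.

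MS4A proteins cross the membrane several times, and many are thought to sit beside other receptors and adjust how these signal. MS4A4A is found on macrophages and has been described as a partner of dectin-1, a receptor for fungal sugars that signals through the kinase Syk. Ms4a4b is best known from T cells, Ms4a7 from mature macrophages, and Ms4a8a from macrophages with an alternative (anti-inflammatory) programme. Lipopolysaccharide (LPS), a bacterial cell wall component, acts on macrophages through TLR4. LPS induces the microRNA miR-146a, which is described as limiting this pathway through its targets Irak1 and Traf6.

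Bone marrow-derived macrophages (BMDMs) were grown from the femur and tibia marrow of mice of mixed 129 and B6 background, 6 to 7 months old, in M-CSF at 10 ng/ml for 8 to 9 days. The mice were wild-type (WT), homozygous for a miR-146a null allele (KO), or homozygous for 3′F, an allele in which most of the non-seed end of the mature miRNA was swapped with the opposite arm of the hairpin while the seed was kept. Cultures of each genotype were left resting or given LPS at 1 ng/ml for 16 h, with 3 libraries in each of the 6 groups. Both mutant alleles were made in embryonic stem cells, and founders of each line were crossed back to C57BL6/J mice 3 times. For the lysates of its mass spectrometry the study's methods give a younger age of mice. The study also describes each replicate as split between sequencing and mass spectrometry, so the age is uncertain. The labels name 3 mice per genotype and separate cultures but do not tie a replicate number to an animal, so a p-value below measures the spread between these cultures. The 18 libraries held 4071084 to 19818043 counts in genes, a 4.87-fold range, and 3 counts corresponded to between 0.164 and 0.702 CPM, the counts per 1e+06 counts of a library. The table has no row for miR-146a, so the genotypes were not checked here.

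One library stood apart in interferon-stimulated genes before any MS4A gene was considered. Summed over 14 interferon-stimulated genes, the level was 159 to 327 CPM in resting WT and 187 to 266 CPM in resting 3′F libraries, but 749, 571 and 12953 CPM in resting KO replicates 1, 2 and 3. KO replicate 3 therefore lay within the 11209 to 15633 CPM range of LPS-treated KO libraries, although it is labelled as resting. LPS-treated WT libraries were also spread, at 7437, 3194 and 17525 CPM. Counts of called members that rest on resting KO cells are given below with and without replicate 3. Differences of single members without it are given in part, and not for KO against 3′F. The fit takes the spread of each gene from all 18 libraries, so this replicate also enters the p-values of the other comparisons. Fits with only the groups compared, given in part at the end, leave it out of those. All macrophage markers on a list of 7 genes (Csf1r, Adgre1, Itgam, Cd68, Mertk, Fcgr1 and Lyz2) were detected and tested, with sums of 31119 to 86458 CPM over the 18 libraries. B cell markers summed to at most 0.869 CPM, natural killer cell markers to 0.936 CPM, mast cell and basophil markers to 1.64 CPM and dendritic cell markers to 3.28 CPM. The natural killer, mast cell and dendritic maxima all came from resting 3′F replicate 3, the library with the fewest counts. Its counts differed more from resting 3′F replicates 1 and 2 (chi-squared per degree of freedom 63.4 and 57.9) than these did from each other (7.23). Neutrophil and precursor markers summed to 12.4 to 62.7 CPM, and the highest resting values were 62.7 CPM in 3′F replicate 3 and 50.7 CPM in KO replicate 3. Their part in the results was not tested. In these bulk cultures, fewer cells of a type and less RNA per cell cannot be told apart.

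The members lie in 1 cluster on mouse chromosome 19, spread over 537 kb between positions 11067471 and 11604849 (mm10). In order along the chromosome they are Ms4a8a, Ms4a7, Ms4a4a, Ms4a4c, Ms4a4b, Ms4a6c, Ms4a6b, Ms4a4d and Ms4a6d, with Ms4a8a, Ms4a7 and Ms4a6d on the minus strand. Their exons share 0 bases with any other gene on the same strand. Because the genes arose by duplication, reads can be ambiguous: 8.19% of the 50-base stretches of Ms4a4c transcripts and 5.85% of those of Ms4a6c also occur in another Ms4a gene. The share was 3.44% for Ms4a6b, 2.31% for Ms4a6d and 2.24% for Ms4a4b, and it was 0 for Ms4a4a, Ms4a7 and Ms4a8a.

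The microRNA that differs between the genotypes is shown here, with its seed (bases 2 to 8) in capitals, because its usual targets carry the complement of that seed. The sequence is from RefSeq, at chr11:43374435-43374456 on the minus strand (GRCm38.p6).
mmu-miR-146a-5p: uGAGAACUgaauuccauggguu
Among the longest annotated 3′ UTRs (GENCODE M21) of the 8 members that have one, only that of Ms4a4b held a match to the complement of bases 2 to 8, and it held 3 of them in 3956 bases. Each is shown as the 22 bases that end opposite the first base of the miRNA, followed by its position on the plus strand of mm10. Capitals mark the match and the A that follows it.
Ms4a4b site 1: agttatgtcaagacAGTTCTCA (chr19:11464288-11464309)
Ms4a4b site 2: tcaatgattctctcAGTTCTCA (chr19:11464850-11464871)
Ms4a4b site 3: catcacaggaagtgAGTTCTCA (chr19:11464928-11464949)
Ms4a4b held a further match to bases 2 to 7 followed by A, and Ms4a4b, Ms4a6b and Ms4a6c held 1 match each to bases 2 to 7 alone. No such match was found in the 3′ UTRs of Ms4a4c, Ms4a4d, Ms4a6d, Ms4a7 or Ms4a8a, and Ms4a4a has no annotated 3′ UTR. For comparison, 18.2% of 20786 genes held at least 1 match of 7 bases and 29.7% held at least 1 match of 6. The deposited table gives Ms4a4b a length of 1244 bases, so the long 3′ UTR with these matches may lie outside the model in which its reads were counted. A match of letters is a description and not evidence of binding.

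Promoter windows, from 250 bases before to 50 bases after the annotated start, were read from RefSeq (GRCm38.p6) for 8 of the members. Ms4a6b and Ms4a6c, whose levels followed each other most closely within the Ms4a6 genes once group means were removed, share stretches of promoter sequence. Both windows are on the plus strand, at chr19:11518309-11518608 and chr19:11469118-11469417, with identical runs of at least 12 bases in capitals.
Ms4a6b promoter: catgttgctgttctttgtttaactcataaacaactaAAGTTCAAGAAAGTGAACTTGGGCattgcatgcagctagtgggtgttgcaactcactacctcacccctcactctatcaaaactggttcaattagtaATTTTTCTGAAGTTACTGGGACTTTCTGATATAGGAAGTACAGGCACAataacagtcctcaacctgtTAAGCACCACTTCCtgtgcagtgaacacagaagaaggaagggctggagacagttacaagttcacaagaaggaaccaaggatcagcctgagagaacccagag
Ms4a6c promoter: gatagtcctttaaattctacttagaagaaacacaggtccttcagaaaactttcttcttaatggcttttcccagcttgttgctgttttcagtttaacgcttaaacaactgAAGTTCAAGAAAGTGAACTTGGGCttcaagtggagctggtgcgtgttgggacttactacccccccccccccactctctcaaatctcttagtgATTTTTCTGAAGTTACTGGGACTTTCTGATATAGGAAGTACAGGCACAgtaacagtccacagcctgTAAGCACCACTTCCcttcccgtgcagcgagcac
They had 3 such runs, the longest of 48 bases, and these runs covered 86 bases or 28.7% of each window. Ms4a4b and Ms4a4c, which differed in level by far more, were alike in the same way. Their windows are also on the plus strand, at chr19:11443308-11443607 and chr19:11407411-11407710.
Ms4a4b promoter: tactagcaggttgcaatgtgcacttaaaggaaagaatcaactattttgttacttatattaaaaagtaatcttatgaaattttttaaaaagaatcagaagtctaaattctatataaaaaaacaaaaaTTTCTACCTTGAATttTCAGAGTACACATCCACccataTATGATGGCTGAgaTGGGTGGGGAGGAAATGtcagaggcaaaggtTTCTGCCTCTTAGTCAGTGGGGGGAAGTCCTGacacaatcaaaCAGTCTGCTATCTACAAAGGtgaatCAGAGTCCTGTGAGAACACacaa
Ms4a4c promoter: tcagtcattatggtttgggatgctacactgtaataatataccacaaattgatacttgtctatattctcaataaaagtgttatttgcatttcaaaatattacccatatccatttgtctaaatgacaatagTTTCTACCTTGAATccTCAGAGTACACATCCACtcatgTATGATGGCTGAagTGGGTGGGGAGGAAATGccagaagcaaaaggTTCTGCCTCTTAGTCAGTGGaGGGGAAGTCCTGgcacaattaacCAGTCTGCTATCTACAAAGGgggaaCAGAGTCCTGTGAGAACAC
Here 8 runs, the longest of 20 bases, covered 131 bases or 43.7% of each window. The pairs and the minimum run were chosen after the sequences were seen. The RefSeq starts of Ms4a4c and Ms4a6b lie inside the GENCODE gene, and both genes have several annotated starts.

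Both strands of these windows were searched for binding motifs of factors that act in stimulated macrophages. The core of the interferon-stimulated response element, 2 copies of GAAA separated by 2 bases of any kind, and the GAS element, TTC and GAA separated by 3 bases, were not found in the windows of the 8 members. Of all 32851 promoters of the same length, 3.44% held the first and 8.3% the second. The letters GAGGAAG, bound by PU.1, were not found either and occur in 13.6% of promoters. TGANTCA, the AP-1 motif, occurred in Ms4a4b (22 to 28 bases after the start), in Ms4a8a (bases −244 to −238) and in 1 of the windows of Ms4a7 (bases −81 to −75), against 7.81% of all promoters. An NF-kB motif occurred in Ms4a4a (bases −247 to −238), against 8.46% of all promoters. A missing match says only that these letters are not in these windows.

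Levels were compared between genes as CPM per kb of the length given in the table. In resting WT cells Ms4a7 was the highest member, at a level of 222 ± 55.8 CPM per kb (mean ± SD, n = 3), followed by Ms4a6d at 78.2 ± 10.8 and Ms4a6c at 49.2 ± 10.3. Ms4a6b and Ms4a4a stood lower, at levels of 14.9 ± 3.63 and 10.3 ± 6.52 CPM per kb, and these neighbours in the order did not differ beyond their spread. Ms4a4c was low, at 1.03 ± 0.754 CPM per kb and 10 to 34 counts per library. Ms4a4b, at 0.226 ± 0.0416 CPM per kb and 3 to 5 counts per library, was close to the limit of detection. With LPS the order in WT cells changed: Ms4a6d was at a level of 402 ± 160 CPM per kb, Ms4a7 at 306 ± 77.4 and Ms4a6c at 249 ± 117, which overlap within 1 SD. Ms4a4c stood above Ms4a4a in mean level, at 59.5 ± 57.3 against 45.7 ± 26.9 CPM per kb, again within their spread. That order came from replicate 3, at 124 against 71.6 CPM per kb. Ms4a4c was below Ms4a4a in replicate 1, at 38.5 against 47.6, and in replicate 2, at 15.6 against 17.9. In LPS-treated KO cells Ms4a6d stood at 648 ± 29.1, Ms4a6c at 443 ± 27.1 and Ms4a7 at 345 ± 27.1 CPM per kb. Averaged over all libraries, Ms4a6d, Ms4a7 and Ms4a6c were at the 98.4, 98.4 and 97.4 percentiles of the 11357 tested genes on this scale, and Ms4a4b was at the 11.9 percentile.

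The 3 Ms4a6 genes behaved alike. Ms4a6d, a gene described in macrophages together with the inhibitory receptor Vsig4, was at levels of 116, 106 and 138 CPM in resting WT libraries and at 621, 371 and 861 CPM with LPS. All LPS libraries were above all resting ones. Such groups without overlap, in either direction, were common, at 47.5% of all tested genes in WT, 42.7% in KO and 45.2% in 3′F. In KO cells Ms4a6d was at 152, 158 and 508 CPM at rest and at 986, 1045 and 957 CPM with LPS, so replicate 3 was the highest resting library and the groups did not overlap. In 3′F cells it was at 113, 133 and 112 CPM at rest and at 595, 647 and 559 CPM with LPS, again without overlap.

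Ms4a6c was at 108, 70.7 and 92.5 CPM in resting WT libraries and at 458, 241 and 674 CPM with LPS. The KO levels of Ms4a6c were 164, 144 and 478 CPM at rest and 784, 872 and 788 CPM with LPS. Replicate 3 of resting KO was again far above its group and inside the range of LPS-treated WT. The 3′F levels of Ms4a6c were 75.7, 89.1 and 134 CPM at rest and 449, 457 and 411 CPM with LPS. Its LPS groups lay above the resting groups in each genotype, a separation whose shares over all genes are given above.

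Ms4a6b was at 47.0, 28.8 and 43.8 CPM in resting WT libraries and at 174, 70.5 and 344 CPM with LPS. In KO cells it was at 85.2, 72.0 and 220 CPM at rest and at 456, 435 and 418 CPM with LPS. The resting KO libraries all lay above the resting WT libraries, and the LPS-treated KO libraries all lay above the LPS-treated WT libraries. Of all tested genes, 26.8% at rest and 32.9% with LPS had KO and WT libraries without overlap, in either direction. In 3′F cells Ms4a6b was at 28.1, 31.2 and 50.1 CPM at rest and at 152, 157 and 128 CPM with LPS, and both sets overlapped the WT libraries.

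Ms4a4c moved over the widest range of any member. It was at 1.38, 0.753 and 3.29 CPM in resting WT libraries and at 67.3, 27.3 and 218 CPM with LPS, and at 1.81, 0.927 and 5.38 CPM in resting 3′F libraries and 104, 51.4 and 49.6 CPM with LPS. Resting KO libraries were at 6.92, 4.66 and 164 CPM, and LPS-treated KO libraries at 199, 157 and 170 CPM. KO replicate 3 at rest thus fell inside the LPS-treated KO range, and the other resting KO libraries were above every resting WT library.

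Ms4a4a, which encodes the macrophage protein described with dectin-1, did not follow that library. It was at 7.55, 3.76 and 14.5 CPM in resting WT libraries, at 21.2, 24.3 and 20.5 CPM in resting KO libraries and at 7.68, 10.2 and 9.60 CPM in resting 3′F libraries. The resting KO libraries lay within 4 CPM of each other, replicate 3 being the lowest, and above all other resting libraries. With LPS, Ms4a4a was at 39.8, 14.9 and 59.9 CPM in WT, at 106, 137 and 113 CPM in KO and at 32.2, 47.5 and 27.1 CPM in 3′F libraries. The LPS-treated KO libraries were above every other library. Of all tested genes, 26.8% at rest and 32.9% with LPS had KO and WT libraries without overlap, in either direction. Between KO and 3′F the shares were 29.6% and 34.3%.

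Ms4a4b was scarcely detected, with 2 to 42 counts per library. It was at 0.328, 0.226 and 0.290 CPM in resting WT libraries and at 1.26, 0.887 and 1.69 CPM with LPS. Resting KO libraries were at 0.556, 0.382 and 2.36 CPM and LPS-treated KO libraries at 2.27, 3.04 and 1.78 CPM, with replicate 3 at rest inside the LPS range. Resting 3′F libraries were at 0.226, 0.521 and 0.468 CPM and LPS-treated ones at 2.20, 1.04 and 0.898 CPM. Because this gene is known from T cells, the T cell markers Cd3e, Cd3d, Cd3g, Cd4 and Cd8a were set beside it: 4 of the 5 never exceeded 2 counts in a library, Cd3e was at 0 throughout, and the sum, nearly all Cd4, was 0.449 to 11.3 CPM. That sum was lowest in resting KO replicate 3, the resting library with the most Ms4a4b. Which cells the Ms4a4b counts came from was not tested.

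Ms4a7, known from mature macrophages, was high in every library. It was at 469, 279 and 405 CPM in resting WT libraries and at 591, 376 and 622 CPM with LPS. The KO levels of Ms4a7 were 554, 544 and 335 CPM at rest and 588, 648 and 556 CPM with LPS. In 3′F cells it was at 410, 467 and 791 CPM at rest and at 505, 563 and 440 CPM with LPS. Replicate 3 was the lowest resting KO library and the highest resting 3′F library for this gene.

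The remaining members could not be tested. Ms4a4d had 7 counts in all, in 5 of 18 libraries, with at most 2 in a library. Ms4a8a had 36 counts in all, in 12 libraries, and 11 of them, or 1.24 CPM, came from resting KO replicate 3. At this depth a change in either gene was not detectable.

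**Figure D1:**
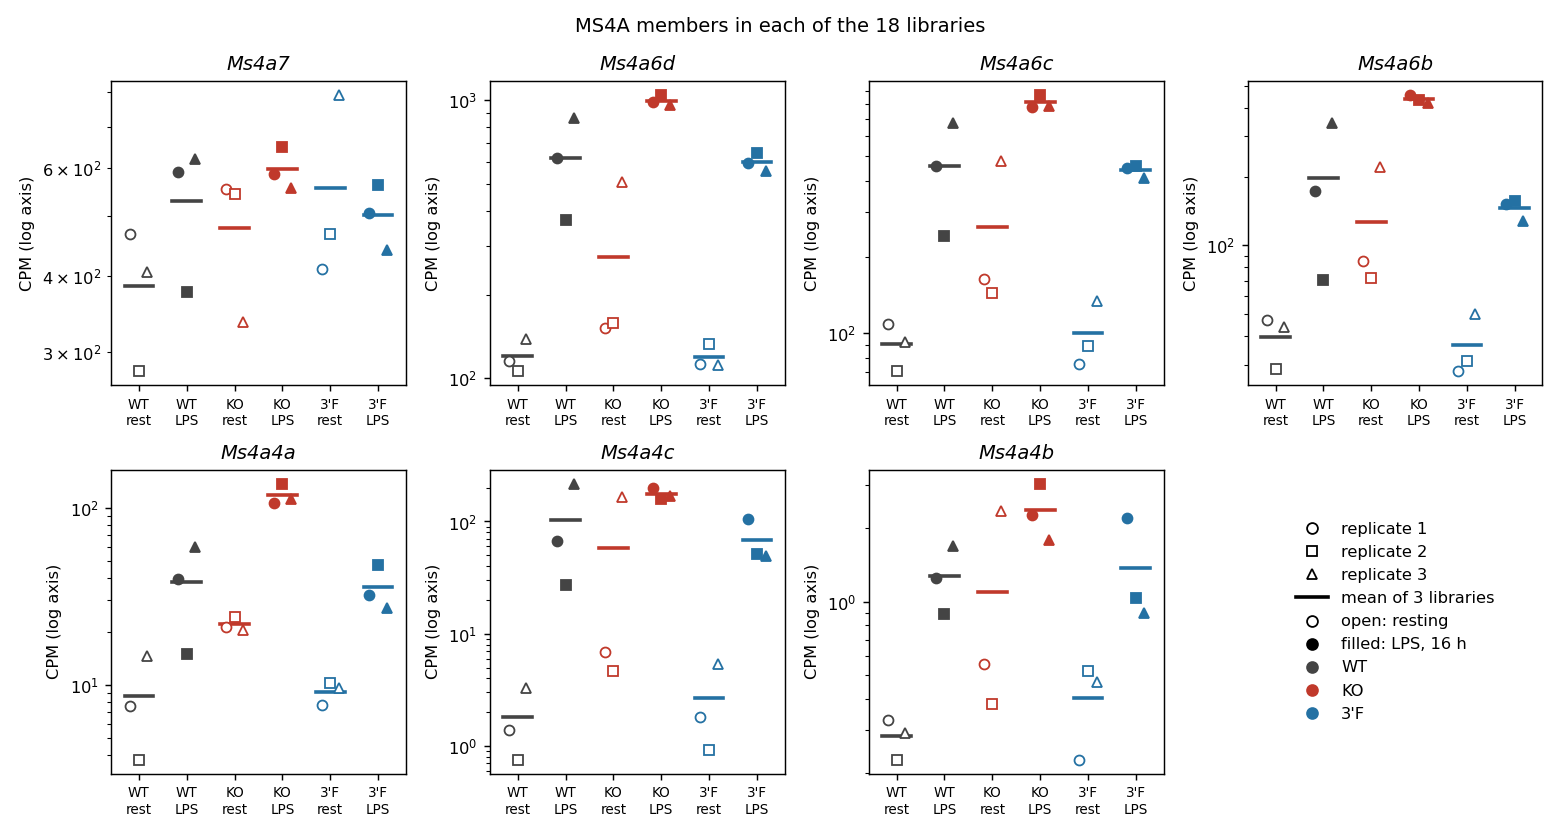
Level of each of the 7 tested members in every library, in CPM on a log axis, with the 6 groups along the horizontal axis, a symbol for each replicate, open for resting and filled for LPS, and a bar for the mean of 3 libraries; each panel has its own scale. Resting KO replicate 3 stands at 164 CPM for Ms4a4c and at 20.5 CPM for Ms4a4a, inside the LPS-treated KO range for the first gene only.

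The response to LPS was tested in each genotype with edgeR's quasi-likelihood test, and a gene was called at a Benjamini-Hochberg adjusted p under 0.05 over 11357 genes. In WT cells 6 of the 7 tested members rose and none fell, where 28.5% of all tested genes were called. This share, like the shares called below, counts both directions, and 16.3% of genes were called higher. The median log2 difference was 2.30 over the members and 0.02 over all genes. Ms4a4c rose by a log2 difference of 5.91 ± 1.28 (SE, adjusted p = 0.00256), and Ms4a6d by 2.36 ± 0.38 (adjusted p = 0.000251). The other called members, Ms4a6c, Ms4a6b, Ms4a4a and Ms4a4b, rose by 2.34 ± 0.41, 2.30 ± 0.47, 2.17 ± 0.44 and 2.13 ± 0.65 on the log2 scale. Ms4a7 was not called, with a log2 difference of 0.46 ± 0.26 (adjusted p = 0.208). The call of Ms4a4b was lost without LPS-treated WT replicate 3 and without any single resting WT library. Ms4a4b had 3 to 5 counts in resting WT libraries and 13 to 23 with LPS. It passed the low-count filter through LPS-treated libraries, so its place among the risen members, in any genotype, is partly set by that filter.

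In 3′F cells the called members were again 6, where 31.2% of all tested genes were called and 17.2% were called higher. The median log2 difference was 2.02 over the members against −0.01 over all genes. Ms4a4c rose by 5.07 ± 1.28 (adjusted p = 0.00687), Ms4a6d by 2.33 ± 0.38 (adjusted p = 0.000261) and Ms4a4a by 1.98 ± 0.44 (adjusted p = 0.00303) on the log2 scale. Ms4a6c rose by 2.15 ± 0.41, Ms4a6b by 2.02 ± 0.47 and Ms4a4b by 1.83 ± 0.63. Ms4a7 had a log2 difference of −0.14 ± 0.26 (adjusted p = 0.712). The call of Ms4a4b was lost without LPS-treated replicate 1, or resting replicate 1 or 3, of 3′F. This gene had 2 to 9 counts in resting 3′F libraries, so the limit from the filter holds here too.

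In KO cells 4 members rose, where 26.9% of all tested genes were called and 14.3% were called higher. The members' median log2 difference was 1.64 against 0.02 over all genes. The called members were Ms4a4a, at a log2 difference of 2.43 ± 0.42 (adjusted p = 0.000435), Ms4a6d at 1.87 ± 0.37, Ms4a6b at 1.80 ± 0.46 and Ms4a6c at 1.64 ± 0.40. Ms4a4c had a log2 difference of 1.61 ± 0.97 (adjusted p = 0.238) and Ms4a4b one of 1.23 ± 0.53 (adjusted p = 0.0977). This count depended on resting replicate 3: without it, 6 members were called, where 35.5% of genes were, and Ms4a4c rose by 4.91 (adjusted p = 0.000155) and Ms4a4b by 2.29 (adjusted p = 0.00134) on the log2 scale. Without it the log2 difference was 2.68 for Ms4a6d, 2.47 for Ms4a6b, 2.41 for Ms4a6c and 2.38 for Ms4a4a.

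**Figure D2:**
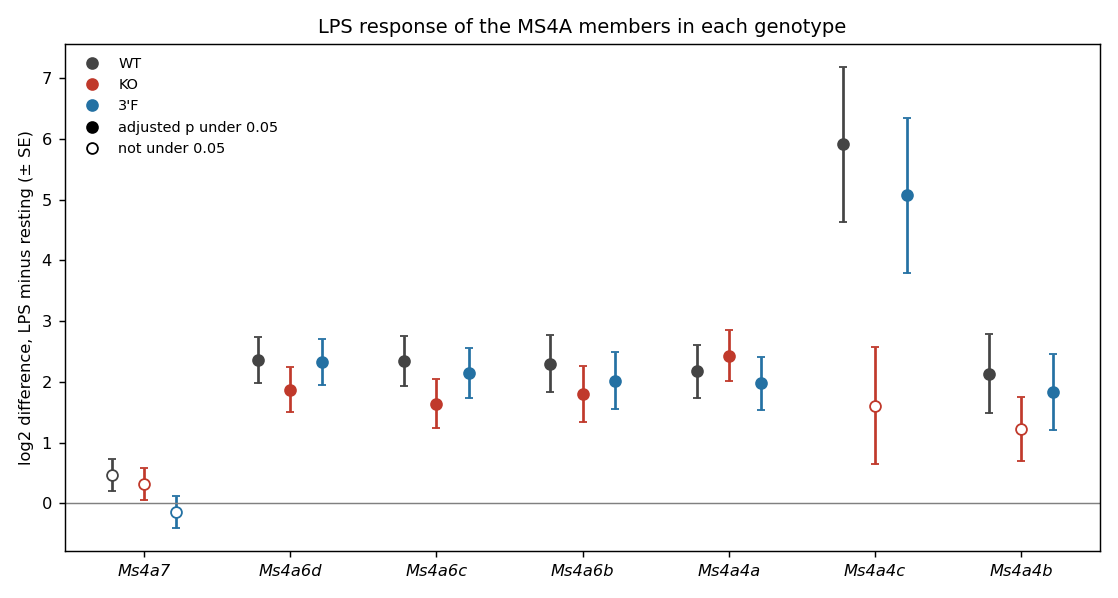
Log2 difference between LPS-treated and resting cells for each tested member in WT, KO and 3′F, with bars for the standard error; filled points have an adjusted p under 0.05 and open points do not. Ms4a4c is at 5.91 in WT and 5.07 in 3′F but at 1.61 in KO, and Ms4a7 lies between −0.14 and 0.46.

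Whether the LPS response differed between genotypes was tested as an interaction. No member was called for KO minus WT, where 0.00881% of all tested genes were, or for 3′F minus WT, where 0% were. At an unadjusted p under 0.05 the first contrast had 1 member and 560 genes in all, and the second 0 members and 203 genes. That member was Ms4a4c, with a difference of −4.30 ± 1.55 between its log2 responses (adjusted p = 0.764), which shrank to −1.01 (adjusted p = 1) without resting KO replicate 3. For 3′F minus WT, differences between the log2 responses ran from −0.84 to −0.03.

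Resting KO cells were compared with resting WT cells. Whether a difference between them came from the loss of miR-146a was not tested. Of the 7 tested members 3 were higher in KO cells and none lower, where 9.4% of all tested genes were called and 5.12% were called higher. The median log2 difference was 1.53 over the members and 0.02 over all genes. Ms4a4c was higher by a log2 difference of 5.06 ± 1.26 (adjusted p = 0.0187), Ms4a6b by 1.66 ± 0.46 (adjusted p = 0.0350) and Ms4a6c by 1.53 ± 0.40 (adjusted p = 0.0252). Ms4a6d, at 1.18 ± 0.37 (adjusted p = 0.0529), and Ms4a4a, at 1.38 ± 0.44 (adjusted p = 0.0584), missed the threshold. Without resting KO replicate 3, 0 members were called, where 7.18% of genes were, and the log2 difference was 1.77 for Ms4a4c (adjusted p = 0.263), 0.98 for Ms4a6b (adjusted p = 0.181) and 0.76 for Ms4a6c (adjusted p = 0.151). Ms4a4a was at 1.43 there (adjusted p = 0.0845). Without resting WT replicate 1 or 2, or with only the compared groups in the fit, the count was also 0.

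With LPS, 1 member was higher in KO than in WT cells, where 4.79% of all tested genes were called and 1.89% were called higher. Ms4a4a was higher by a log2 difference of 1.64 ± 0.40, or 3.11-fold (adjusted p = 0.0301). The call was lost without LPS-treated WT replicate 1 or 2 or any single LPS-treated KO library, and without WT replicate 2 the difference was 1.25 (adjusted p = 0.109). Without LPS-treated WT replicate 3, which had the most interferon-stimulated transcripts of its group, both Ms4a4a, at 2.12 (adjusted p = 0.0150), and Ms4a6b, at 1.84 (adjusted p = 0.0363), were called. The other members had log2 differences from 0.17 for Ms4a7 to 1.15 ± 0.45 for Ms4a6b (adjusted p = 0.172), with a median of 0.83 over all 7.

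**Figure D3:**
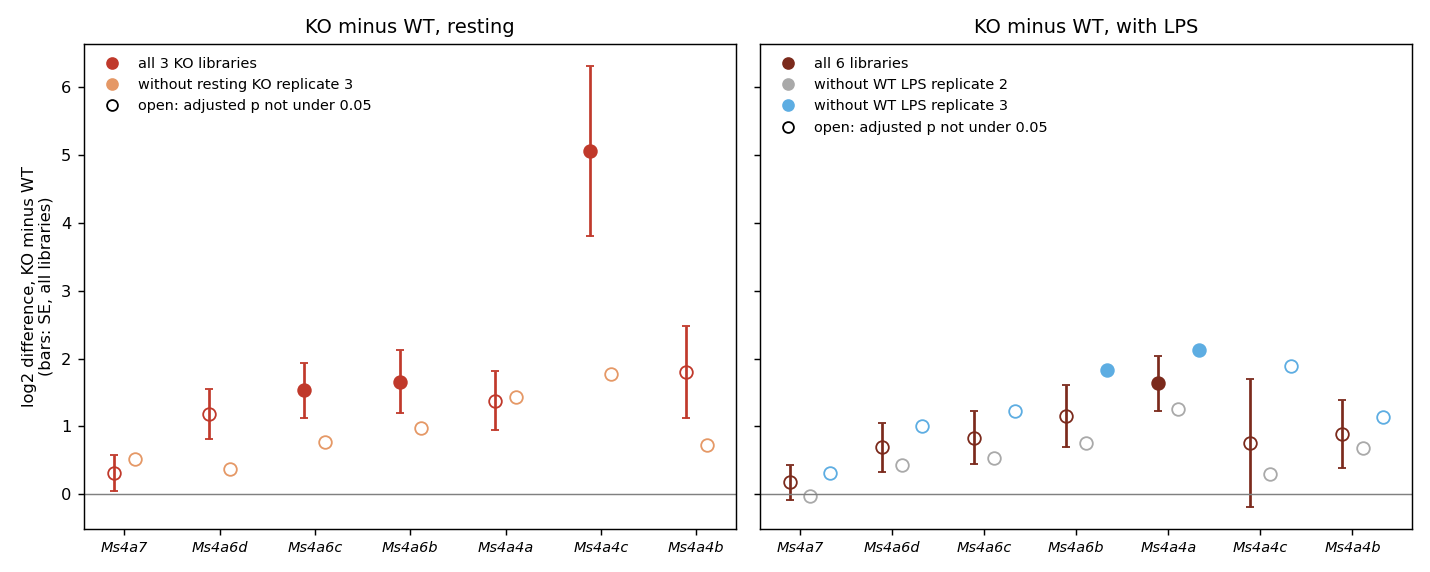
Log2 difference between KO and WT cells for each tested member, at rest (left; all libraries, and without KO replicate 3) and with LPS (right; all libraries, and without WT replicate 2 or 3), where bars are standard errors with all libraries and filled points have an adjusted p under 0.05. Without resting KO replicate 3 Ms4a4c moves from 5.06 to 1.77, whereas Ms4a4a moves from 1.38 to 1.43.

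The 3′F allele, which keeps the seed, was compared with WT in the same way. At rest 0 members were called, where 0% of genes were, and with LPS 0 members were called, where 0.00881% of genes were. Unadjusted p was under 0.05 for 0 members in both comparisons, against 557 genes at rest and 106 genes with LPS. Log2 differences ran from −0.15 (Ms4a6b) to 0.53 (Ms4a7) at rest, with adjusted p from 0.843 to 0.997, and from −0.60 (Ms4a4c) to 0.14 (Ms4a4b) with LPS, with adjusted p of 1 for each member. The standard errors were largest for Ms4a4c, at 1.52 at rest and 0.94 with LPS, so sizeable differences in that gene were not detectable.

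KO and 3′F cells were also compared, using the KO libraries already set against WT. At rest 4 members were higher in KO cells, where 12.9% of all tested genes were called: Ms4a4c at a log2 difference of 4.82 ± 1.28, Ms4a6b at 1.81 ± 0.47, Ms4a6c at 1.40 ± 0.40 and Ms4a6d at 1.19 ± 0.37 (adjusted p = 0.0236, 0.0221, 0.0328 and 0.0425). The Ms4a4c groups overlapped, since 3′F replicate 3, at 5.38 CPM, was above KO replicate 2, at 4.66 CPM. KO replicate 1 was at 6.92 CPM for this gene and KO replicate 3 at 164 CPM. Ms4a4a, at 1.28 ± 0.44 (adjusted p = 0.0658), was not called, though its libraries did not overlap, as in 29.6% of all tested genes. Without resting KO replicate 3 the count was 0, where 8.19% of genes were called, and it was also 0 without resting 3′F replicate 1 or 2 and with only the compared groups in the fit. Without resting 3′F replicate 3 it was 3, where 6.47% of genes were called. With LPS, Ms4a4a was the 1 member called, where 3.88% of genes were, at a log2 difference of 1.73 ± 0.41 (adjusted p = 0.0270), and Ms4a6b had 1.58 ± 0.46 (adjusted p = 0.0664). The Ms4a4a call was lost without any single LPS-treated KO library and without LPS-treated 3′F replicate 1 or 3. With all libraries, the alternative methods given at the end called 1 to 6 members with LPS. The LPS-treated KO and 3′F libraries did not overlap for 5 members, as for 34.3% of all tested genes.

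Levels of most members rose and fell together across the 18 libraries. On the log2 CPM scale, Pearson's r was 0.981 between Ms4a6c and Ms4a6d, 0.979 between Ms4a6b and Ms4a6c and 0.978 between Ms4a4c and Ms4a6c. Ms4a7 stood apart, with r of 0.324 to 0.575 with the others. Once group means were taken away, r between Ms4a6b and Ms4a6c was still 0.965, and r between Ms4a4a and Ms4a4c was 0.389. These values describe libraries that share treatment, genotype and depth.

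Among 10255 other genes, those most like Ms4a4c over the 18 libraries were Mx1, an interferon-induced antiviral GTPase (r = 0.992), and Tnfsf10, which encodes the death ligand TRAIL (r = 0.991). For Ms4a6c they were Zufsp (r = 0.990) and Fam26f (r = 0.989), for Ms4a6d Cmtr1, an mRNA cap methyltransferase (r = 0.991), and Rap1b, a small GTPase (r = 0.990), and for Ms4a6b Nod1, a sensor of bacterial cell wall fragments (r = 0.981), and Aif1, the macrophage protein Iba1 (r = 0.978). Ms4a4a was most like the C-type lectin gene Clec4a3 (r = 0.960) and Pla2g7, which encodes a secreted phospholipase (r = 0.957). Ms4a4b was most like H2-T10 (r = 0.974) and AW011738 (r = 0.965), and Ms4a7 like Rbm39 (r = 0.915) and BC030336 (r = 0.893).

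**Figure D4:**
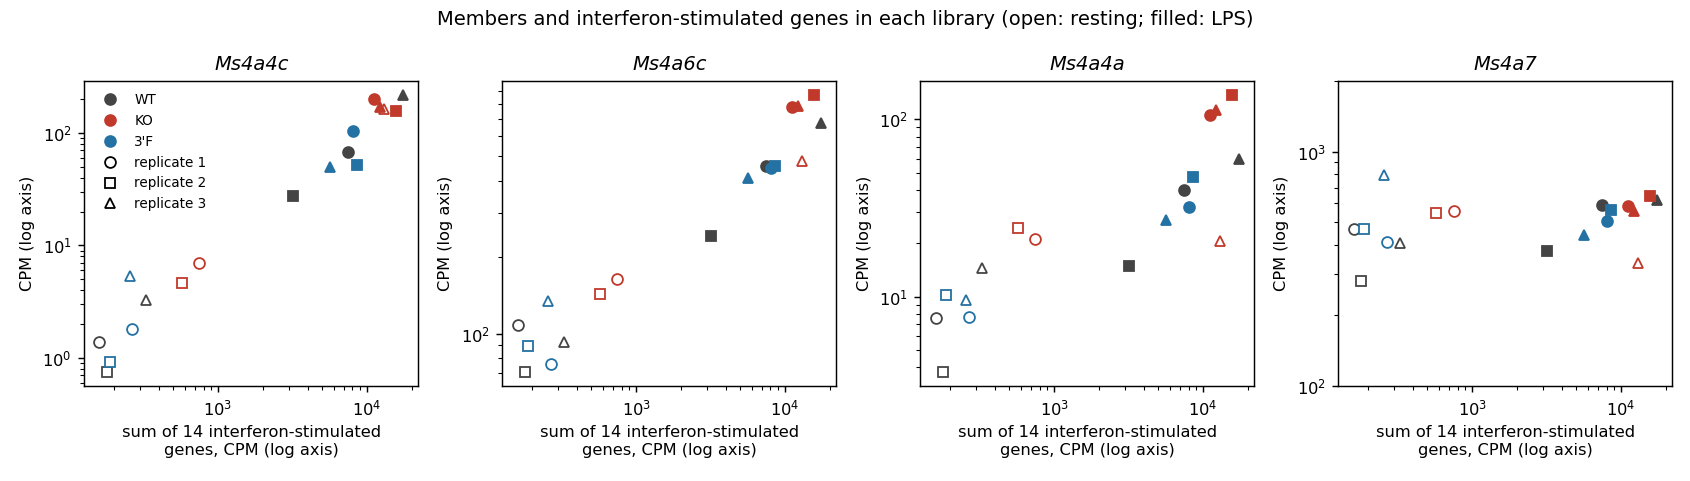
Levels of Ms4a4c, Ms4a6c, Ms4a4a and Ms4a7 (CPM, log axis) against the summed level of 14 interferon-stimulated genes (CPM, log axis) in the 18 libraries, with colours for genotype, symbols for replicate and open or filled points for resting or LPS-treated cells. Resting KO replicate 3, at 12953 CPM on the horizontal axis, lies among LPS-treated libraries for Ms4a4c and stays with the resting KO libraries for Ms4a4a, at 20.5 CPM.

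Calls of the interferon-stimulated genes also changed with that library. All 14 rose with LPS in WT cells and 13 in 3′F cells, while 2 did so in KO cells, or 13 without resting KO replicate 3. Resting KO cells were higher than resting WT cells in 13 of 14, and in 9 of 14 without replicate 3. The counts against resting 3′F cells were the same, 13 and 9. With LPS, 0 of 14 were called between any of the genotypes, and 0 between resting 3′F and WT cells. The part of this list in the members' differences was not tested.

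Of 9 genes related to MS4A or encoding partners, 8 were tested. Tmem176a and Tmem176b, which encode membrane proteins related to MS4A, rose with LPS in WT cells by log2 differences of 3.19 ± 0.34 and 2.58 ± 0.26, with 4 of 8 genes higher and 1 lower. At rest both were higher in KO than in WT cells, Tmem176b by 2.30 ± 0.26 (adjusted p = 0.000165) and Tmem176a by 2.10 ± 0.36 (adjusted p = 0.00271), with the kinase gene Lyn also called, at 0.64 ± 0.18. They were also higher with LPS, by 1.50 and 1.42 (adjusted p = 0.00167 and 0.00655). In resting KO libraries Tmem176b was at 24.4, 22.3 and 12.9 CPM and Tmem176a at 6.68, 5.12 and 2.36 CPM, so replicate 3 was the lowest in both. Without that library 2 of the 8 genes were called against WT, Tmem176b at 2.52 and Tmem176a at 2.39, and Lyn was at 0.49 (adjusted p = 0.128). The kinase genes Syk and Lyn rose with LPS in WT cells by 0.96 and 0.99, and Trem2, a receptor for lipids, fell by 0.54 on the log2 scale. In KO and in 3′F cells LPS raised 5 genes and lowered 1, and the KO counts did not move without resting replicate 3. Between resting KO and 3′F cells 3 genes were called, or 2 without that library, and with LPS 2, all higher in KO, and 0 were called between 3′F and WT cells. Clec7a, which encodes dectin-1, was called in none of the 11 comparisons, and Fcer1a had 0 counts.

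Of 10 genes of alternative activation 8 were tested. LPS raised Arg1, Il4ra and Cd163 in WT cells, by log2 differences of 2.76 ± 0.77, 1.90 ± 0.25 and 1.01 ± 0.27, and it raised 3 genes in 3′F and 2 in KO cells, or 3 in KO cells without resting replicate 3, where Mrc1, the mannose receptor gene, fell by 0.41. F13a1, which encodes a coagulation factor subunit, was the 1 gene called between resting KO and WT cells, at 1.45 ± 0.35 (adjusted p = 0.0153), and 2 were called there without KO replicate 3. With LPS, F13a1, at 1.37 ± 0.33, and the haemoglobin scavenger receptor Cd163, at 0.97 ± 0.25, were higher in KO cells. Against 3′F, KO cells were higher in F13a1 at rest, by 1.14 ± 0.35, a call lost without resting 3′F replicate 3 and without resting KO replicate 3 (1.25, adjusted p = 0.0511), and in Cd163 with LPS, by 1.16 ± 0.25. None of the 8 was called between 3′F and WT cells.

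Of the 10 other genes of the family, 9 had at most 8 counts in a library and only Ms4a14 was tested. Ms4a14 was at 10.1, 15.7 and 17.8 CPM in resting WT, at 27.8, 25.1 and 18.1 CPM in resting KO and at 12.8, 12.5 and 5.62 CPM in resting 3′F libraries, so the KO libraries lay above the others. Of all tested genes, 26.8% had resting KO libraries without overlap with WT and 29.6% without overlap with 3′F, in either direction. With LPS Ms4a14 was at 14.9 to 22.6 CPM in all 9 libraries. It rose with LPS in 3′F cells by 0.98 ± 0.25 (adjusted p = 0.00837) and exceeded its resting 3′F level in resting KO cells by 1.13 ± 0.25 (adjusted p = 0.0112) on the log2 scale. Without resting KO replicate 3 the second difference was 1.27 (adjusted p = 0.00922), and Ms4a14 was then also higher in resting KO than resting WT cells, by 0.87 (adjusted p = 0.0456).

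Inside the cluster or within 1 Mb of it lay 66 genes of other names, of which 28 were tested. LPS raised 4 and lowered 4 of them in WT cells, 5 and 4 in 3′F cells and 3 and 5 in KO cells, or 4 and 7 in KO cells without resting replicate 3. Of all tested genes, LPS changed 28.5% in WT, 31.2% in 3′F and 26.9% in KO cells, or 35.5% in KO cells without that library. Between KO and WT cells 9.4% were called at rest and 4.79% with LPS. The median log2 difference of the neighbours with LPS was −0.07 in WT cells, compared with 2.30 for the members. The largest called rise in WT cells was that of Gm8369, at 2.99 ± 0.75, which lies inside the cluster between Ms4a6c and Ms4a6b. Slc15a3, a peptide and histidine transporter of endosomes, and Ccdc86 followed, at 2.14 ± 0.25 and 2.14 ± 0.27. Between resting KO and WT cells 2 neighbours were higher, Ccdc86 by 1.35 ± 0.27 and Slc15a3 by 0.99 ± 0.25. The resting KO libraries were at 30.3, 28.5 and 75.8 CPM for Ccdc86 and at 221, 204 and 454 CPM for Slc15a3, so replicate 3 was far the highest in both. Without it the difference was 0.76 for Ccdc86 (adjusted p = 0.00331) and 0.53 for Slc15a3 (adjusted p = 0.0745). With LPS 1 neighbour was lower in KO than in WT cells, Stx3, by −0.56 ± 0.13.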

How the data were processed

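Strand-specific libraries of ribosome-depleted RNA were sequenced, 3 from each of 6 groups. Per the labels and the study's methods, the authors trimmed reads with cutadapt 1.8.3, aligned them to mm10 with HISAT2 2.1.0 and counted them per gene with featureCounts 1.5.3, by strand, at a mapping quality of at least 50, using GENCODE M15. The deposited values are raw counts per gene with a gene length, and a read that aligned equally well to several MS4A copies would not pass that mapping quality.

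The counts were fitted in edgeR 4.0.16 (R 4.3.3) with TMM scaling (factors 0.812 to 1.15), filterByExpr (minimum count 10), 1 coefficient per group over all 18 libraries and two-sided quasi-likelihood tests, with Benjamini-Hochberg adjustment over 11357 genes. CPM used TMM-scaled library sizes, and limits from counts cover counting error only. Replicates of a group differed by more than sampling noise. All members were named, with up to 3 called genes per list by size of difference, those a result turned on, and the 2 most alike genes. Gene IDs matched the annotation for 21679 of 21734 genes. Alternatives were DESeq2 1.42.0, median-ratio size factors, no filter, limma-voom (limma 3.58.1), only the groups compared, a replicate block and leaving out each library. Members and lists were chosen with earlier results of these data known.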

Additional observations from a re-analysis of the deposited data

How the results depend on the processing

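Leaving out 1 library at a time, the number of members called ran from 5 to 6 for LPS in WT, 4 to 6 in KO and 5 to 6 in 3′F, from 0 to 5 for KO against WT at rest and 0 to 2 with LPS, from 0 to 4 for KO against 3′F at rest and 0 to 1 with LPS, and it was 0 throughout for 3′F against WT and for both interactions. With all libraries, KO against WT at rest (3 members) gave 5 by DESeq2, 5 with no filter on low counts and 0 with only the groups compared in the fit. KO against WT with LPS (1 member) gave 5 by limma-voom with sample quality weights and 0 with a replicate block. KO against 3′F at rest (4 members) gave 0 with only the groups compared and 0 with the block. KO against 3′F with LPS (1 member) gave 2 by DESeq2, 2 with no filter, 5 by limma-voom, 5 with only the groups compared and 6 with the block. The causes were not tested. The LPS counts stayed within 1.5 times of their values under these alternatives. Limma-voom also called Ms4a7 with LPS in WT cells (log2 difference 0.62, adjusted p = 0.00839) and between resting KO and WT cells (0.60, adjusted p = 0.0217). Of 300 repeats of single called values, 240 kept the call, 60 lost it and 0 changed direction.

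Over all genes, limma-voom called 5218, 6073 and 5478 genes for LPS in WT, KO and 3′F, against 3240, 3059 and 3546. For KO against WT at rest, 1067 calls became 2259 by limma-voom, 377 with only the groups compared and 462 with the block. With LPS, 544 became 912 by DESeq2, 1777 by limma-voom, 1013 with only the groups compared and 167 with the block. For KO against 3′F at rest, 1464 became 2916, 4 and 1 by limma-voom, with only the groups compared and with the block, and with LPS 441 became 778, 1842, 1694 and 2246 by DESeq2, limma-voom, only the groups compared and the block. The KO minus WT interaction had 26 calls by DESeq2 and 57 by limma-voom against 1, and 3′F against WT had at most 2 under any alternative.

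The labels do not say that a replicate number marks a shared animal, and not every same-numbered pair correlated above 0.1, so the numbers were not used to pair the samples. The correlation of deviations from group means between resting and LPS-treated libraries of the same number and genotype was over 0.1 in 5 of 9 pairs, and in 8 of 9 the library correlated best with its own number, a hint of pairing from the data and not from the design. Between genotypes it was over 0.1 in 6 of 18 pairs. The shallowest library, with 4071084 counts, limits Ms4a4b, Ms4a4d and Ms4a8a.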
